A study of Mus musculus with 2 samples.

Results

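Tle3 binding was examined at all 356 peaks on mouse chromosomes 16 and 19, out of 5136 peaks in the deposited list, with 170 peaks on chromosome 16 and 186 on chromosome 19. The peaks were chosen by chromosome alone, because these chromosomes could be aligned with a gene table of another genome build and the genes at the peaks could therefore be named. Tle3 was mapped by ChIP-seq, which sequences the DNA that an antibody pulls down with its protein, in bone marrow cells that lack lineage markers and carry cKit, the receptor for stem cell factor, a population that holds blood stem and progenitor cells. The cells came from wild-type C57BL/6 mice aged 8 to 10 weeks, for the Tle3 library and the control library alike. There were 2 libraries, 1 made with an anti-Tle3 antibody and 1 control, which the labels call normal IgG in some fields and input in others. Some fields also call the cells T cells. The number of mice, and whether they were pooled, is not given in the sources used here. Since neither antibody had a second library, nothing below carries a test between conditions. The ranges in parentheses after shares are 95% Clopper-Pearson intervals, which are exact for counting error and cover no other error.

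Tle3 belongs to the Groucho family of corepressors. These proteins do not bind DNA by themselves. They are brought to chromatin by transcription factors such as RUNX, HES, TCF/LEF and homeodomain proteins, and they in turn recruit histone deacetylases. A peak marks where DNA was enriched with the antibody; it does not show that a gene is repressed, or expressed.

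Peak positions are in the build mm9, and the gene tables are in GRCm38.p6. Over most of chromosome 16 the builds shared coordinates: for the 147 peaks up to position 92826007, 46.3% of midpoints (38.0 to 54.7%) were at most 1 kb from where a protein-coding gene begins or ends without any shift, against 4.76% and 4.08% after shifts of 20 kb in either direction. The last 19 peaks of chromosome 16, from position 94592581 on, matched 0 gene ends without a shift and 11 of 19 (57.9%, 33.5 to 79.7%) after a shift of -221570 bp, so a single offset does not hold for the whole chromosome. On chromosome 19 the first 36 peaks, up to position 6401447, matched at 50% (32.9 to 67.1%) without a shift. This stretch is dense in genes, and the match stood less far above its surroundings: shifts of 20 kb gave 13.9% and 16.7%, and the highest share at any shift between 3 and 100 kb was 38.9%. From position 7017462 on, 146 peaks matched at 43.8% (35.6 to 52.3%) after a shift of -74550 bp, against 4.11% without it and 5.48% and 6.85% at 20 kb from it. These offsets were chosen on the same peaks. When they were estimated from odd-numbered peaks alone, the even-numbered peaks, which the estimate had not used, matched for 6 of 9 (66.7%, 29.9 to 92.5%) at the end of chromosome 16 and for 31 of 74 (41.9%, 30.5 to 53.9%) on chromosome 19. The 8 peaks between the stretches, 4 on each chromosome with scores from 55.28 to 204.07, were assigned to no gene, which left 348 placed peaks. Odd and even peaks gave -221410 and -221620 bp on chromosome 16 and -74590 and -74500 bp on chromosome 19. Distances to genes beyond the changes are known no better than these estimates differ.

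**Figure D1:**
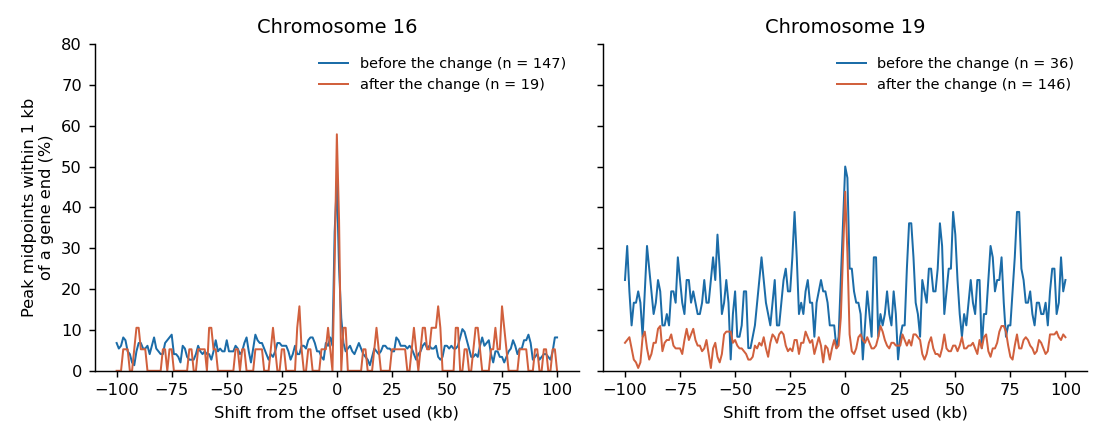
Share of peak midpoints within 1 kb of a protein-coding gene end (%) against an added shift of -100 to 100 kb from the offset used, for the stretches before and after the change of offset on chromosomes 16 and 19. Each stretch peaks at a shift of 0; before the change on chromosome 19 the share elsewhere reaches 38.9%.

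The DNA at 4 starts with a peak is shown because these genes carry the results below. Runx1 and Tle4 belong to the Tle3 system itself, Hhex had the highest score at a start among the regulatory genes listed for this work, and Dusp5 is a target of growth factor signalling. Each sequence runs from 250 bases before to 50 bases after the start of the gene (RefSeq), 5′ to 3′ along the gene, in lower case. Capitals mark matches, on either strand, to 1 of 5 motifs of 6 letters, none of which overlaps another in these 4. TGTGGT stands for the sites of RUNX factors. CTTTGA stands for those of TCF and LEF factors of the Wnt pathway. CACGTG is the E-box that many helix-loop-helix factors bind. GGAAGT is a core of ETS sites. AGATAA is a GATA site.
Runx1 (GRCm38.p6, chr16:92826025-92826324, reverse strand): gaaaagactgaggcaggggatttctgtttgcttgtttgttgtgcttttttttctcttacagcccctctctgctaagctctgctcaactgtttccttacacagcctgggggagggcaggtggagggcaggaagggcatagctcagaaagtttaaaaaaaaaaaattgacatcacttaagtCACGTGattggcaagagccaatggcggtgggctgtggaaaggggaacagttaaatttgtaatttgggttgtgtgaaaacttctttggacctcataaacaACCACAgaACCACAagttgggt
Hhex (GRCm38.p6, chr19:37434591-37434890, forward strand): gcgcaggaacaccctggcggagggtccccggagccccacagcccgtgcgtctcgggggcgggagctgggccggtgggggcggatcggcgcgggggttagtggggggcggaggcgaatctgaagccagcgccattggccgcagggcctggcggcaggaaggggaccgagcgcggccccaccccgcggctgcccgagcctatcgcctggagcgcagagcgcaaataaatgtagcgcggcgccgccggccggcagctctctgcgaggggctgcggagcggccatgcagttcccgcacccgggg
Tle4 (GRCm38.p6, chr19:14598134-14598433, reverse strand): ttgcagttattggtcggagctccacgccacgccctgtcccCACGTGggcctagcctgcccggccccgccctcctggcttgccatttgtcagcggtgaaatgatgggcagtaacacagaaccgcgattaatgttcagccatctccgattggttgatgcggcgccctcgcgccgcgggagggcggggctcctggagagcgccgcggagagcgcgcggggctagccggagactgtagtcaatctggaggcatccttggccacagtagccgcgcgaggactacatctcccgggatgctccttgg
Dusp5 (GRCm38.p6, chr19:53528895-53529194, forward strand): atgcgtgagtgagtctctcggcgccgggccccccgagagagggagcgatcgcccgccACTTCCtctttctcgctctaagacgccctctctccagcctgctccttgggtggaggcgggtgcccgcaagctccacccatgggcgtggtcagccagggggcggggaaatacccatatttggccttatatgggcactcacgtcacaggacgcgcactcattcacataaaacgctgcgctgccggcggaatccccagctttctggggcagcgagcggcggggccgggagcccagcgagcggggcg
The distal Runx1 promoter held both RUNX motif matches of the set, at bases 279 and 287, just past the start at base 251, and an E-box at base 180. It was poor in CpG: its CpG ratio, the number of CpG against that given by its C and G content, was 0.137. Hhex (CpG ratio 0.878) held none of the motifs, Tle4 (0.884) 1 E-box at base 41, and Dusp5 (0.84) 1 ETS match at base 58. The starts of Ifngr2 and Socs1, described below but not shown here, held none of the motifs. A match is a run of letters, not a shown binding site.

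Gene starts held the most Tle3 peaks of the 3 kinds of place. A peak was counted at a start when its midpoint was within 1 kb of a start listed in the RefSeq promoter table, or of either end where a gene has no listed start there. Of 348 placed peaks, 174 (50%, 44.6 to 55.4%) lay at a start, 106 (30.5%, 25.7 to 35.6%) inside a protein-coding gene away from its starts, and 68 (19.5%, 15.5 to 24.1%) outside protein-coding genes. The windows around starts make up 2.15% of the bases between the first and last placed peak, so peaks were 23.3 times as frequent there as the bases alone would give. Gene interiors make up 42.7% and the remainder 55.1%, and peaks were less frequent there, at 0.714 and 0.354 times their share of bases. The offsets were chosen for matches at starts, so this share is not independent of them. Chromosomes 16 and 19 had like shares at starts, 48.8% (41.0 to 56.7%) and 51.1% (43.6 to 58.6%). Away from starts, 4 of 174 peaks were within 1 kb of the 3′ end of a gene of known strand. The share of bases in such windows is not given, so this count shows neither an excess nor a lack at 3′ ends. Of the 68 peaks outside genes, 29 were within 10 kb of a gene, 29 at 10 to 100 kb and 10 farther, with a median distance of 14.6 kb.

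At starts, the peaks sat close to the first base. For 152 of the 174 peaks the strand of the nearest start is listed, and 111 of them (73.0%, 65.2 to 79.9%) covered the start itself. The median midpoint was 46 bp downstream, with quartiles of -138 bp (upstream) and 194 bp. For peaks beyond the changes, a distance like this median is within the precision of the placement. Before the changes no shift was applied, and the median is not given for those peaks alone. The midpoint was upstream in 63 peaks and downstream in 89. Beyond the changes, the offsets were refined to bring midpoints close to listed starts. The distances and the share covering the start are therefore not independent of the offsets there. At 28 peaks the window held 2 or more genes, and 19 peaks had starts on both strands, as at Bbip1 and Shoc2 (score 155.45) and at Glyr1 and Ubn1 (99.4).

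**Figure D2:**
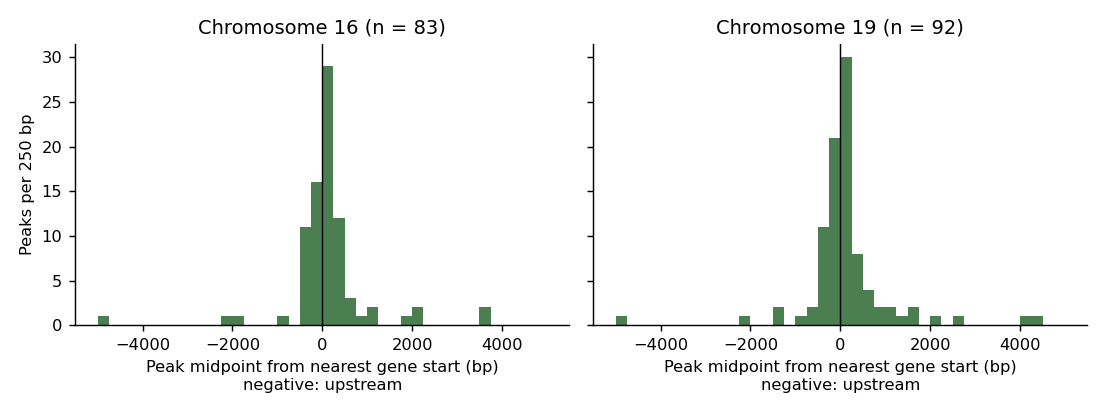
Number of peaks per 250 bp by signed distance from the peak midpoint to the nearest listed gene start (bp, negative upstream), within 5 kb, on each chromosome. The bars gather around 0, with a median of 46 bp downstream among the peaks at starts. Beyond the changes of offset, the offsets were fitted to listed starts.

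Median scores differed little by place. The score is the authors' MACS score, which starts at 50 and ranks peaks within the list. The median was 68.69 at starts, 66.66 inside genes and 70.15 outside genes. Scores of 100 or more were held by 37 of 174 peaks at starts (21.3%, 15.4 to 28.1%), 28 of 106 inside genes (26.4%, 18.3 to 35.9%) and 21 of 68 outside (30.9%, 20.2 to 43.3%), and these intervals overlap. On chromosome 16 the shares were 18.5%, 32.0% and 40.0%, and on chromosome 19 they were 23.7%, 21.4% and 21.2%. In the middle of the range the scores were like those of the other chromosomes: the median was 68.69 for the 356 peaks and 68.86 for the 4780 others, and 24.7% against 24.5% reached 100. The maximum was 441.18 here and 3100 elsewhere. A maximum depends on the number of peaks, so this does not show a difference at the top.

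**Figure D3:**
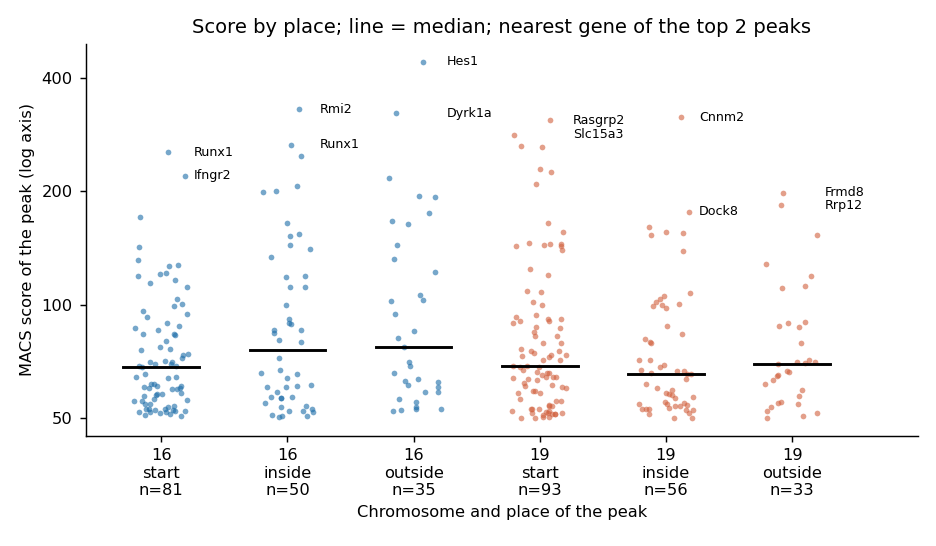
MACS score of each placed peak (log axis) by chromosome and place, with the median as a line and the nearest protein-coding gene of the 2 highest peaks of each column. Medians lie between 65.58 and 76.97 in all 6 columns, and the highest peak, near Hes1, lies outside a gene.

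The highest score on chromosome 16 belonged to a peak next to Hes1, a target of Notch signalling whose protein is a repressor that binds Groucho proteins. This peak (30063122 to 30064820, 1699 bp wide) scored 441.18, and its edge was 537 bp from the nearer end of Hes1. With its midpoint at 1386 bp it falls outside the 1 kb rule. The second (10838123 to 10839195, score 330.08) lay inside Rmi2, a subunit of the complex that dissolves recombination intermediates, 3600 bp from its nearer end. The third (94919727 to 94921028, 321.71) lay 3288 bp past Dyrk1a, which encodes a kinase, and 87388 bp from its nearest listed start. Of the next 7, 3 were in Runx1, described below. The others were at Ifngr2 (220.13), upstream of Ifnar2 (216.59), inside Muc20, a mucin gene (206.62), and inside Tfap4, which encodes a helix-loop-helix factor (200.14). By place, 2 of these 10 peaks were at a start, 5 inside a gene and 3 outside.

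On chromosome 19, starts took 7 of the 10 highest peaks. The highest of all lay inside Cnnm2 (46937740 to 46938525, score 314.52), a gene for magnesium transport, 101973 bp from its own listed start and 73786 bp from that of the neighbouring gene Nt5c2. Rasgrp2, which activates the small GTPase Rap1 in platelets and leukocytes, followed at 308.76 (6398725 to 6400143), with the midpoint 441 bp upstream of its start. A second, weaker peak (79.31) sat 258 bp upstream of another listed start of Rasgrp2, and these are the last peaks before the change of offset. Slc15a3, a peptide and histidine transporter of endolysosomes, scored 282.63 at an end without a listed strand. Tm9sf3 scored 264.34 and Hhex, a homeodomain repressor needed in early blood and endothelial development that binds Groucho proteins, scored 262.01 (37508813 to 37510744). Sfr1 (229.23), a recombination factor, Nt5c2 (224.46), a nucleotidase of purine metabolism, and Dusp5 (209.01), a phosphatase that inactivates ERK in the nucleus, completed the starts. A peak scoring 204.07 lay between the stretches and has no gene. The tenth (5845143 to 5846332, 197.93) lay 5237 bp from the protein-coding gene Frmd8 and 257 bp from an end of Neat1, the long non-coding RNA that builds paraspeckles.

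Runx1 held more Tle3 peaks than any other gene of these chromosomes: 11, all inside the gene, against at most 4 within 10 kb of any other gene (Aldh3b1, Itsn1, Mgrn1 and Pik3ap1). RUNX1 is the core binding factor that definitive blood stem cells require, and its C-terminal motif binds Groucho proteins. The peaks span 205.9 kb, from 92620897 to 92826820, and Runx1 is read from high to low coordinates. The peak at the distal start (92825195 to 92826820) scored 253.8, was 1626 bp wide and covered the start, with its midpoint 67 bp downstream. A peak at the proximal start (92697390 to 92697971) scored 55.74, with its midpoint 351 bp upstream, and did not cover it. The proximal start thus had one of the weakest peaks of the gene and the distal start the second strongest. The strongest lay 204676 bp downstream of the distal start (92620897 to 92621899, score 265.57), and another strong one 171908 bp downstream (92653818 to 92654515, 247.91). Between the starts, peaks at 3592, 23989, 24872, 60852 and 110118 bp from the distal start scored 118.29, 85.41, 119.07, 111.33 and 79.66. Past the proximal start, peaks at 147313 and 152102 bp scored 53.93 and 52.7, near the lower limit. The placement of Runx1 rests on its own 2 matches at 67 and 351 bp, and the peak at the distal start is the last before the change of offset on chromosome 16.

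**Figure D4:**
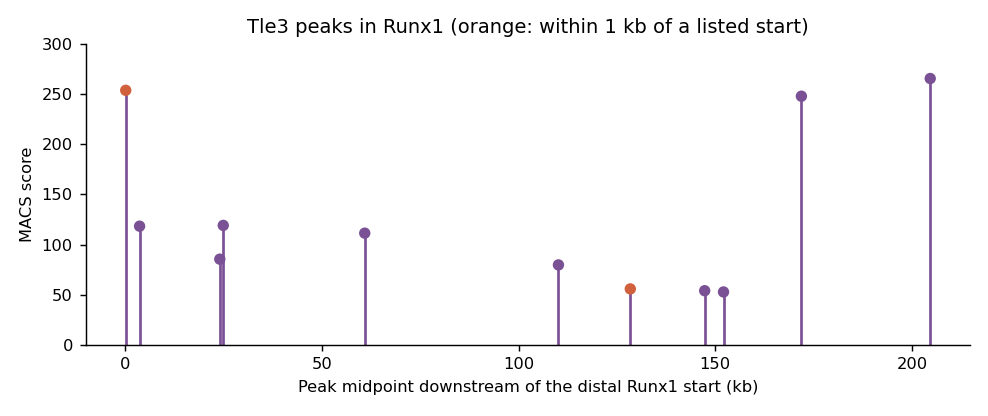
MACS score of the 11 peaks in Runx1 against the distance of their midpoint downstream of the distal start (kb), with peaks within 1 kb of a listed start in orange. The peaks at the distal start (253.8) and at 171908 and 204676 bp (247.91 and 265.57) stand above the others, which score 119.07 or less.

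Of 1384 protein-coding genes of these chromosomes, 193 (13.9%) had a peak at a start or end, and 259 (18.7%) had one there or inside the gene. These shares are the background for the gene lists that follow. A peak at a start or end was held by 88 of 679 genes (13.0%, 10.5 to 15.7%) on chromosome 16. On chromosome 19 it was 105 of 705 (14.9%, 12.3 to 17.7%). The background is not matched to the lists for CpG content or gene length. Of listed starts with a CpG ratio above 0.6, 23.7% had a peak, against 3.37% of the others. How far CpG content or gene length accounts for the shares of the lists was not tested. The lists were written with earlier results of these data known, so their counts are descriptions.

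Among Groucho corepressors and the factors known to bring them to DNA, 4 of the 8 genes on these chromosomes had a peak at a start: Hhex, Runx1, Tle4 and Ldb1. Tle4, a close relative of Tle3, had a peak of 164.69 (14672102 to 14673554) that covered a listed start, with the midpoint 95 bp upstream. Another listed start of Tle4, with a CpG ratio of 1.1028, had no peak midpoint within 1 kb. Ldb1, the adaptor of the LMO2 and GATA complexes of blood, had a weak peak of 52.95 at 1 of its 3 listed starts. A further 2 had peaks inside the gene only. Tcf7l2, a TCF factor of the Wnt pathway, had 3 inside peaks of 67.08, 68.22 and 59.91, the nearest 17715 bp from a listed start, and Pax2, a paired-box factor of kidney development, had 1 of 53.82. Hes1 has the strong neighbouring peak described above, and Nkx2-3, a homeodomain factor of spleen and gut vessels, had none within 10 kb. Thus 7 of the 8 had a peak inside or within 10 kb, where 349 of all 1384 genes (25.2%) did. A longer gene has more room for such a peak, and the background is not matched for gene length.

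Of 20 listed blood transcription factors, 7 (35.0%) had a peak at a start or end and 3 more inside the gene. Besides Runx1, Hhex and Ldb1 these were Cebpd (126.85), a factor of myeloid differentiation; Nfkb2 (120.17), which encodes the precursor of NF-kappaB p52; Bach1 (60.6), a heme-regulated repressor; and Ets2 (59.77), an ETS factor. Cebpd has no listed start, and its peak lay at an end. In Erg, an ETS factor of stem cell maintenance, 2 peaks of 80.53 and 84.13 lay inside the gene, 24542 bp downstream and 5467 bp upstream of listed starts. The third inside gene besides Tcf7l2 was Zbtb20 (52.33). Peaks at a distance were also found near Ets2, at 106389 and 118760 bp from the gene, with scores of 174.81 and 60.6. By midpoint, no peak was counted inside or at a start or end for Bcl6, Etv5, Fosl1, Gabpa, Hes1, Klf9, Men1, Rcor2, Rela and Zbtb11. A peak of 51.09 at the start of Map4k2 overlapped Men1 with its edge only. The NF-kappaB genes thus differed, with a peak at a listed start of Nfkb2, though not at every one, and none within 10 kb of Rela.

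In the list of cytokine receptors and signalling, 8 of 23 genes (34.8%) had a peak at a start or end and 1 more, Cd86 (89.13), inside. The highest score at a start was that of Ifngr2, just above that of Dusp5 (209.01). Ifngr2, a chain of the interferon gamma receptor, had a peak of 220.13 (91546115 to 91547752) that covered its start. Ifnar2, a chain of the type I interferon receptor, had none at its start but a peak of 216.59 at 5548 bp upstream (91366639 to 91367831). The neighbouring peaks in this receptor cluster, at 17354 bp upstream of Ifnar2 and at 12503 bp from Ifnar1, scored 193.01 and 194.45. Socs1, an inhibitor of cytokine signalling through JAK kinases, had a wide peak of 1697 bp and score 170.81 (10784674 to 10786370) centred 14 bp from its start, and a weak one of 52.53 at 5289 bp upstream. Jak2, the kinase of the thrombopoietin and erythropoietin receptors, had a weak peak of 53.73, with the midpoint 22 bp from its start. Csf2ra, a chain of the GM-CSF receptor, scored 89.37, and Il1rap, a chain of the IL-1 receptor, 56.15. Gsk3b, a kinase of the Wnt pathway, had peaks of 69.59 and 87.83 on either side of its start. Litaf, outside this count, had a peak that scored 166.58, with its midpoint 576 bp past the 3′ end. No peak lay within 10 kb of Ifnar1, Fas, Cd274, Pdcd1lg2, Il33 or Cd80.

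In the list of chromatin regulators, 6 of 20 genes (30.0%) had a peak at a start or end. A further 2, Smarca2 (101.88) and Smc5 (59.37), had one inside. The list is broad and takes in genes of other roles, such as Dgcr8. Kmt5b, a histone H4 lysine methyltransferase, scored 142.92, Hmgn1, a nucleosome binding protein, 131.5, and Banf1, a DNA-bridging protein of the nuclear envelope, 108.32. Dgcr8, a partner of Drosha in microRNA processing, scored 73.82 and Hira, a histone H3.3 chaperone, 70.42. Brwd1 had peaks of 64.34 and 61.41 at its start. The acetyltransferase genes Crebbp and Kat5 had none within 10 kb. Of the replication and mitosis genes, 4 of 18 (22.2%) had a peak at a start or end, and 6 (33.3%) there or inside. Those at a start or end scored 50.45 (Kif20b), 52.07 (Mis18a), 52.1 (Incenp) and 52.29 (Cdca5), all close to the lower limit of 50. Smc5 and Pola2 (51.13) had peaks inside only.

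Of the markers of blood cell types on these chromosomes, both progenitor genes, Runx1 and Erg, had a peak at a start or inside. The T cell gene Trat1, with inside peaks of 56.77 and 85.42, and the myeloid gene Cd86 were the others with one. None was found at a start or inside for 5 B cell genes (a peak of 70.61 lay within 10 kb of Igll1 and Vpreb1), Tfrc, the megakaryocyte genes Gp5 and Gp1bb, the T cell genes Cd5, Cd6 and Cd96 or the other 6 granulocyte and monocyte genes. Of the 9 listed progenitor genes, only these 2 lie on these chromosomes, and the peaks of Erg were inside only. Of all protein-coding genes, 18.7% had a peak at a start or end or inside. With so few genes per cell type, the counts do not compare the types. Peaks do not measure expression, so the counts do not test which cells were present.

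Besides Runx1, 13 genes had 3 or 4 peaks inside or within 10 kb. Itsn1, an endocytic adaptor, had 4 (54.92 to 152.57), and Pik3ap1, an adaptor that links receptors of B and myeloid cells to PI3 kinase, had 4 (54.36 to 264.34), the highest being the one at Tm9sf3. Dock8, a guanine exchange factor needed for lymphocyte migration, had 3 (74.52 to 176.49), the strongest 138804 bp from its start. Heg1, a receptor of endothelial junctions, had 3 inside peaks of 91.77, 111.4 and 134.05, and Cnnm2 and Trim8 had 3 each. Pip5k1b, a lipid kinase, had 3 (58.25 to 160.35), of which 1 (139.48) lay at an end without a listed strand. Pitpnm1, a phosphatidylinositol transfer gene, had 3 (50.09 to 108.86), with none at its start. Ubald1 had 3 (68.82 to 120.87), all of them also within 10 kb of Mgrn1. Of 65 genes with listed starts over 5 kb apart, 10 had a peak at a start. Of all 1384 protein-coding genes, 193 (13.9%) had one at a start or end. In 4 of the 10 genes (Dlg1, Nt5c2, Runx1 and Stambpl1) 2 or more listed starts had a peak within 1 kb. In Dlg1, Nt5c2 and Stambpl1 this was 1 peak near several close starts. Runx1 alone of the 4 had a separate peak at each start.

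Olfactory receptor genes, chosen for description after the values were seen, had no peak: 0 of 99 on these chromosomes had one at an end or inside. Their listed starts had low CpG ratios. Of all listed starts with a ratio of 0.6 or below, 3.37% had a peak. Whether the lack of peaks goes beyond CpG content was not tested. Without the olfactory receptor genes the backgrounds become 15.0% and 20.2%. The longest interval without a peak on chromosome 16, 7.68 Mb between 57167614 and 64851697, held 50 protein-coding genes, 25 of them olfactory receptors. On chromosome 19 the longest was 5.28 Mb, between 47980464 and 53259988, with 5 protein-coding genes.

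Starts with a Tle3 peak were rich in CpG. The promoter table lists 1399 starts for 1161 of the protein-coding genes, and 193 of these starts (13.8%, a count equal by coincidence to that of genes) had a peak midpoint within 1 kb. A CpG ratio above 0.6 was found at 170 of the 193 (88.1%, 82.7 to 92.3%), against 547 of 1206 starts without a peak (45.4%, 42.5 to 48.2%). It was found at 717 of the 1399 starts together (51.3%). Of all 32851 promoters in the table, which are not limited to protein-coding genes or to these chromosomes, 35.8% had such a ratio. Read the other way, 23.7% of the CpG-rich starts and 3.37% of the others had a peak. The distal Runx1 start, at 0.137, is among the 23 CpG-poor starts with a peak. The others include a start of Tcirg1, a proton pump subunit (0.0842). A start of Nrip1, a nuclear receptor corepressor, is also CpG-poor (0.289), but the same peak lies within 1 kb of a CpG-rich start of Nrip1 (1.03), and likewise for Btg3, an antiproliferative gene (0.361 and 0.862). Starts that share a gene or a peak are not independent of each other.

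**Figure D5:**
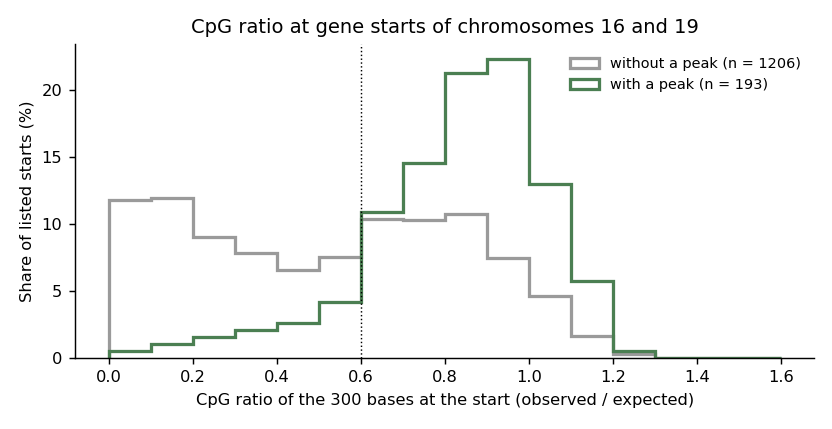
CpG ratio of the 300 bases around listed starts of protein-coding genes on chromosomes 16 and 19, as the share of starts (%) with a peak (n = 193) and without one (n = 1206). The starts with a peak lie mostly above the dotted line at 0.6, at 88.1% against 45.4%.

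The RUNX and TCF/LEF motifs, of factors that recruit Groucho proteins, were found at a smaller share of starts with a peak than without. TGTGGT, the RUNX motif, was found in 8.81% (5.22 to 13.7%) of starts with a peak, 16.4% (14.4 to 18.6%) of those without and 16.8% of all promoters in the table. CTTTGA, for TCF/LEF, was found in 6.22% (3.25 to 10.6%), 17.2% (15.1 to 19.4%) and 16%, and AGATAA, for GATA, in 1.55% (0.322 to 4.48%), 12.4% (10.5 to 14.3%) and 11.2%. GGAAGT, for ETS, was found in 28.5% (22.2 to 35.4%), 22% (19.7 to 24.4%) and 23.8%, and CACGTG, the E-box, in 10.9% (6.86 to 16.2%), 6.88% (5.52 to 8.46%) and 7.15%. Base composition moves with these values, since median GC content was 66.7% with a peak and 54.8% without. Among CpG-rich starts alone the shares with and without a peak were 5.88% (2.86 to 10.6%) and 10.1% (7.66 to 12.9%) for RUNX, 6.47% and 9.87% for TCF/LEF, 1.18% and 4.2% for GATA, 30.6% and 24.1% for ETS, and 11.2% and 10.2% for the E-box. In the 23 CpG-poor starts with a peak the RUNX motif was found in 7 (30.4%, 13.2 to 52.9%), against 21.7% (18.6 to 25%) of CpG-poor starts without one. There TCF/LEF was found in 4.35% with a peak and 23.2% without, GATA in 4.35% and 19.1%, ETS in 13% and 20.2%, the opposite order to CpG-rich starts, and the E-box in 8.7% and 4.1%. With 23 starts these shares are imprecise, for ETS 2.78 to 33.6%. The windows of 300 bases are narrower than the median peak of 653 bp, and peaks inside or outside genes were not searched, so the motifs under them are not analysed here.

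Away from protein-coding starts, 13 peaks lay within 1 kb of a start or end of a non-coding gene or pseudogene. Besides Neat1, the strongest at a long non-coding RNA was at the start of Mirt1 (score 110.38, midpoint 45 bp downstream). Of 67 microRNA hairpins in the table, 3 had a peak midpoint within 1 kb and 8 within 10 kb. The 3 were Mir484 (60.25, at the start of Marf1), Mir3081 (51.89, at an end of Boc without a listed strand) and Mir1945 (121.08, at the start of Gspt1). All 3 peaks thus lay at a start or end of a protein-coding gene. Of protein-coding genes, 13.9% had a peak at a start or end and 25.2% inside or within 10 kb. The hairpin counts are not read as a result about microRNAs. The nearest peak to Mir155, a microRNA of immune activation, was 357966 bp away.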

How the data were processed

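The submitters' processing notes name the aligner Bowtie2, the peak caller MACS 1.4 and the build mm9, without parameters. The only measurement is the score of each peak, deposited by the authors as the MACS score against the control library. It is neither a count nor a fold enrichment. No read totals accompany it, so depth is unknown and no limit of detection was computed.

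Starts were converted to positions counted from 1. Offsets to GRCm38.p6 were scanned in steps of 50 bp up to 300 kb either way, with 1 change per chromosome. The offset with the most midpoints within 500 bp of a listed start was kept, then refined in steps of 10 bp. The scan was tested on simulated lists. For chromosome 16 these lists placed the change midway along the genes, not near the end. They therefore do not test an offset estimated from only the last 19 peaks. Peaks between the stretches were left unplaced. Genes came from RefSeq tables: of 1384 protein-coding genes, 1161 have a listed start with strand in the promoter table, and for the other 223 either end was used. Named are the genes nearest the 10 highest peaks of each chromosome, genes of the lists with a peak at an end or inside, and genes with 3 or more peaks within 10 kb; other genes were chosen after their values were seen, and 1 gene of the lists is not reported here. Members and lists were chosen with earlier results of these data known. Alternatives covered the window, a score of at least 100, gene types, merging and the offsets. Python 3.11.15, numpy 2.4.6, pandas 2.3.3, SciPy 1.17.1 and matplotlib 3.10.9 were used.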

Additional observations from a re-analysis of the deposited data

How the results depend on the processing

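The share of peaks at starts was 50% in the main setting. It was 44.3% with a window of 500 bp, 59.2% with 5 kb, 43.0% among the 86 placed peaks scoring at least 100 and 31.0% with no offset on chromosome 19, and between 46.3% and 54.9% under the other settings tried. The number of genes with a peak at a start or end was 193, and 43 at a score of at least 100; elsewhere it was 170 to 234. The share inside genes was 30.5%, and 24.1% with a window of 5 kb, which counts more peaks at starts. The median score at starts minus that of the other peaks was 1.03. It was 1.17, 0.39 and 1.97 with windows of 500 bp, 2 kb and 5 kb, 0.465 after merging peaks within 1 kb and 1.34 with a wider range left unplaced, and it turned to -4.5 when either end of every gene was used; the cause was not tested. So no direction of score with place is reported. The settings added after seeing the data were either end of every gene, the wider unplaced range and another offset on chromosome 19. The wider range leaves 327 placed peaks and takes out Runx1, whose place near the change of offset rests on its own starts. The list starts at a score of 50 and comes without read totals, so weaker sites cannot be counted. No paired analysis was possible because each antibody had a single library.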
